A study of Mus musculus with 131 samples.

Results

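The growth hormone and IGF axis of the hepatocyte was followed through 9 genes, *Igf1*, *Igfals*, *Ghr*, *Igfbp1*, *Igfbp2*, *Igfbp3*, *Igfbp4*, *Socs2* and *Stat5b*. They were taken by gene name from the deposited expression table of 24397 genes, and each name occurred there once. Hepatocytes of C57Bl mice were profiled by RNA-Seq, RRBS, WGBS, ChIP-Seq and 5hMeDIP-Seq, and samples labelled as liver by ATAC-Seq and HNF6 ChIP-Seq. The question was how methylation lost after birth relates to expression, and what happens when the TET enzymes that remove it are deleted. Wild-type (WT) RNA libraries came from mice of 1 week (1 library), 3 weeks (3) and 15 weeks (3). Double knockout (DKO) mice carried Tet2F/Tet3F alleles and received AAV8 with Cre under the Tbg promoter, which acts in hepatocytes, at 1 day of age (3 libraries) or at 3 weeks (2). Injected controls received the same virus on a WT background at 1 day (3 libraries) or 3 weeks (3). These DKO and control mice were studied at 15 weeks. The labels list 2 RNA libraries of 1 week WT and 3 of DKO injected at 3 weeks, of which 1 and 2 could be matched to columns of the table, and the others were not used here. InsR KO mice, with a floxed insulin receptor, were given the same virus shortly after birth, and their labels give no age. WGBS had 1 library each of newborn WT, of WT at 15 weeks and of DKO injected at 1 day and studied at 15 weeks, and the histone ChIP-Seq used the latter pair of conditions. The samples of ATAC-Seq and HNF6, labelled as liver, were WT and deleted for both TET genes after birth, and their labels give no age. For ATAC-Seq the paper names adult hepatocytes of 15 weeks, with the deletion made at 1 day. RRBS further included hepatocytes of 1 week kept in culture, fat of 25 weeks and neutrophils of 36 weeks. Nothing in the labels ties a library of one assay to an animal of another beyond a number shared by RNA and RRBS columns.

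Pituitary growth hormone acts on the liver through its receptor, *Ghr*, which signals through the kinase JAK2 to the transcription factor STAT5B. STAT5B induces *Igf1*, whose protein is the main circulating growth factor of the postnatal animal, and *Igfals*, which holds IGF1 in a long-lived complex in blood with IGFBP3 or IGFBP5. *Socs2* is a STAT5 target that dampens signalling by the receptor. The binding proteins *Igfbp1* and *Igfbp2* are raised by fasting and fall with insulin, *Igfbp3* in liver comes largely from non-parenchymal cells, and *Igfbp4* inhibits IGF action.

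Expression is given as FPKM, fragments scaled by transcript length and library size, so that levels of different genes can be set side by side. The spacing of the lowest FPKM values gave relative depths of 0.751 to 1.06 among the 18 libraries, and read counts were not used here. *Tet2* had 2.82 to 4.08 FPKM in the libraries labelled DKO at 1 day against 0.890 to 2.13 in their controls, and *Tet3* 1.74 to 2.78 against 1.68 to 2.55. At 3 weeks *Tet2* had 0.824 to 1.84 against 2.08 to 2.99 and *Tet3* 1.56 to 1.67 against 2.44 to 2.89. *Tet2* was thus not lower in the 1 day DKO libraries. A value over the whole gene does not resolve the deleted stretch of a floxed allele, so these levels do not check the deletion, and DKO below means the libraries labelled so. *Alb* was listed at 0 in all libraries, and the other 5 hepatocyte markers summed to between 8244 and 16654 FPKM. Of these, *Serpina1a* had 2427 FPKM in the 1 week library and a mean of 0 in 15 week WT, so it adds nothing to the sum there. *Xist* was at 48.0 to 77.1 FPKM in the 3 libraries of 3 week WT and at 88.1 in library C of the 3 week controls, with the 4 Y-linked genes summing to 0 to 0.0741 in 3 week WT. In the other 14 libraries *Xist* did not exceed 0.0610. Male and female livers differ in growth hormone signalling, so sex and age cannot be told apart in the comparison of 15 with 3 weeks. The calls of the 3 week deletion among members, pathway genes and sex-biased genes are given with and without library C. Nothing in the labels says that libraries of a group came from separate litters, and the p-values measure the spread between these libraries only.

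After birth, *Igf1* and *Ghr* were higher and *Igfbp1*, *Igfbp2* and *Socs2* lower in adult hepatocytes. *Igf1* had 36.8 FPKM in the 1 week library. It had 103.4, 63.9 and 93.8 at 3 weeks and 85.8, 94.2 and 80.3 at 15 weeks. The 2 older ages overlapped, and all their libraries lay above the 1 week value. *Ghr* had 59.4 FPKM at 1 week, then 124, 71.4 and 107 at 3 weeks and 155, 176 and 148 at 15 weeks. Each older group lay above the younger one with no overlap. *Igfals*, at 70.1 FPKM at 1 week, stood at 40.1 to 91.6 at 3 weeks and at 59.1 to 69.8 at 15 weeks, with no order among the ages.

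*Igfbp2*, the most abundant member at 1 week, had 2400 FPKM in that library. It had 621, 505 and 801 FPKM at 3 weeks and 185, 179 and 374 at 15 weeks. *Igfbp1* had 1054 FPKM at 1 week, 1013, 493.04 and 1151 at 3 weeks, and 296, 294 and 258 at 15 weeks. For both binding proteins the 15 week libraries lay below all younger ones. *Igfbp4* stayed abundant throughout, with 502 FPKM at 1 week, 509 to 744 at 3 weeks and 441 to 519 at 15 weeks. *Igfbp3* was the lowest member, at 2.41 FPKM at 1 week, 4.45 to 13.5 at 3 weeks and 0.812 to 2.00 at 15 weeks. *Socs2* had 23.96 FPKM at 1 week, 15.1, 18.9 and 19.2 at 3 weeks, and 1.33, 6.13 and 4.93 at 15 weeks. *Stat5b* had 15.8 FPKM at 1 week, 18.8, 12.3 and 22.2 at 3 weeks, and 11.4, 10.96 and 9.70 at 15 weeks. In adult WT the order of the mean levels was *Igfbp4* (469 FPKM), *Igfbp1* (283), *Igfbp2* (246), *Ghr* (159), *Igf1* (86.8), *Igfals* (66.0), *Stat5b* (10.7), *Socs2* (4.13) and *Igfbp3* (1.44). Among neighbours in this order, the libraries of *Igfbp1* and *Igfbp2* overlapped, and those of *Socs2* and *Igfbp3* overlapped.

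**Figure D1:**
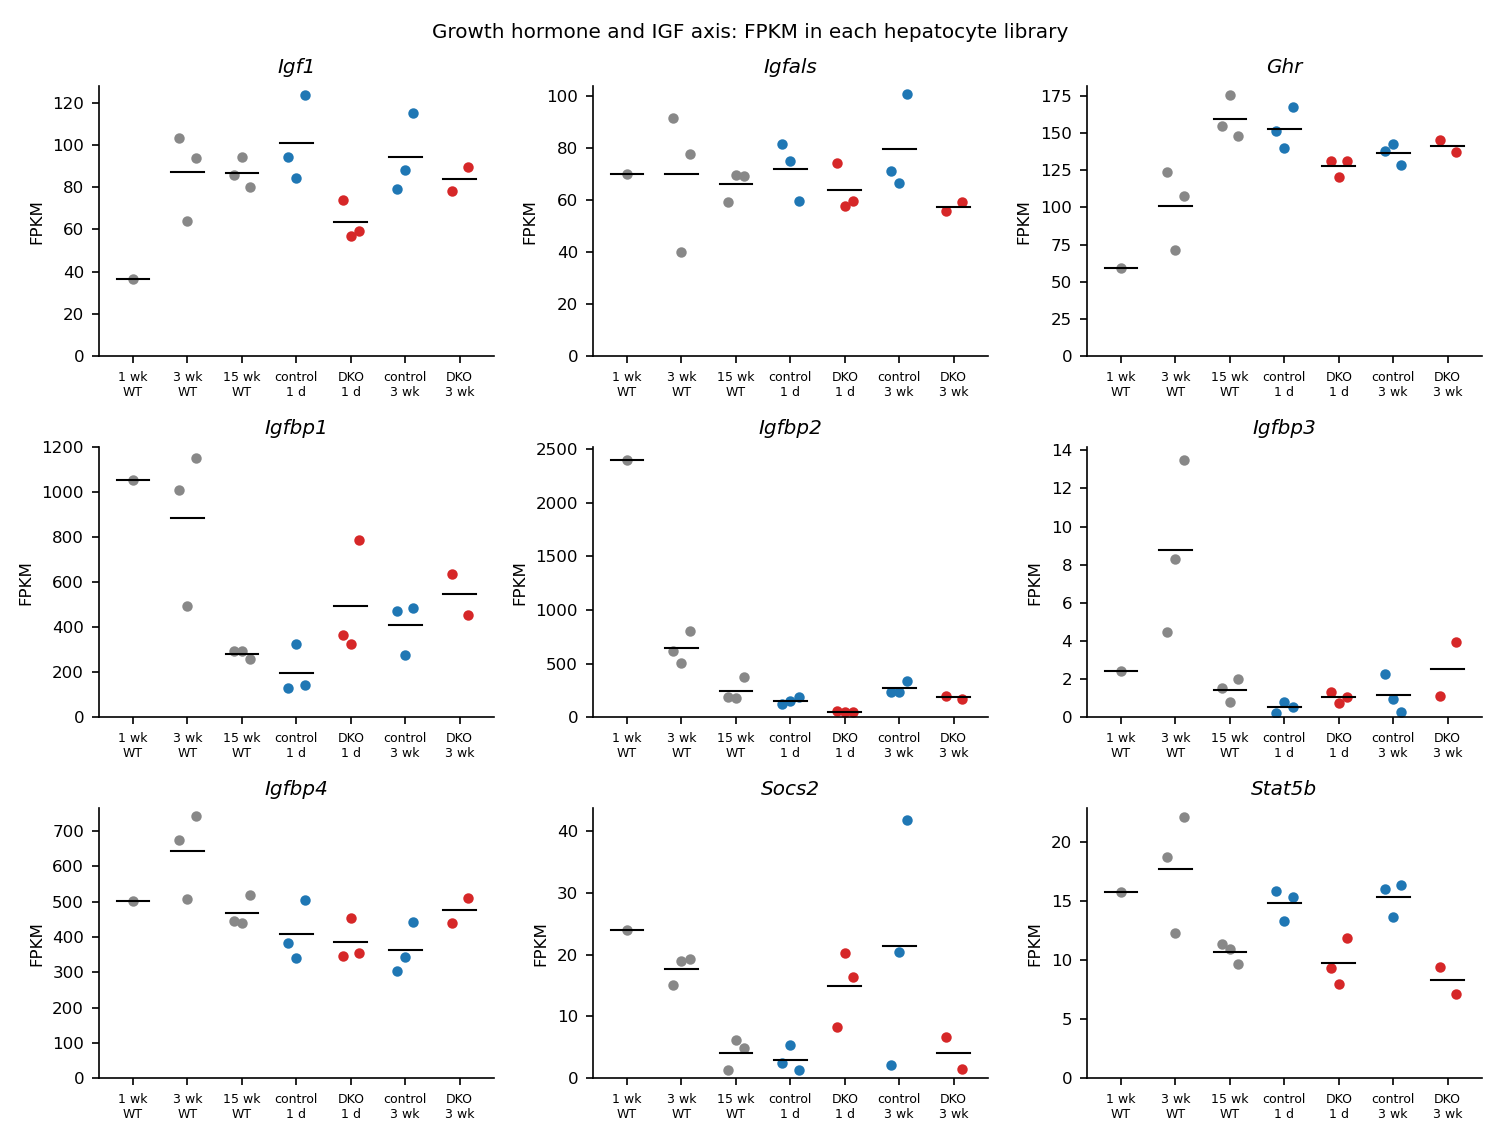
FPKM of the 9 members in each hepatocyte library (1 point a library, line at the group mean, vertical axis from 0), with WT in grey, injected controls in blue and DKO in red. In DKO injected at 1 day *Igfbp2* lies at 47.8 to 61.1, below all other groups, and *Igf1* at 56.8 to 73.8, below its controls at 84.3 to 123.5.

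With 1 library at 1 week, no test was possible against it. A gene was counted where each 15 week library differed from the 1 week library by at least 1 log2 unit, on the scale of log2(FPKM + 1), in 1 direction. By this rule *Ghr* was higher by a mean of 1.41 log2 units and *Igf1* by 1.21, and *Igfbp2* was lower (-3.37), as were *Socs2* (-2.43) and *Igfbp1* (-1.90). Of all 11166 genes tested, 14.4% passed, 5.74% higher (641) and 8.62% lower (962). Of the 9 members, 5 passed, and the differences of the other 4 lay between -0.52 for *Stat5b* and -0.09 for *Igfals*. In that 1 library, erythroid markers summed to 1675 FPKM against at most 71.9 in the others, and cholangiocyte markers to 121 against at most 21.2; their part in these differences was not tested.

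Between 3 and 15 weeks, limma called 5 of 9 members, 1 higher and 4 lower, against 33.3% of all genes, 24% higher (2678) and 9.32% lower (1041). *Ghr* rose by 0.69 log2 units (SE 0.16, adjusted p = 0.0049). *Igfbp3* fell by 1.92 (SE 0.40, adjusted p = 0.0024), *Igfbp1* fell by 1.56 (SE 0.42, adjusted p = 0.0116) and *Igfbp2* fell by 1.45 (SE 0.27, adjusted p = 0.0011). *Stat5b* fell by 0.65 (SE 0.19, adjusted p = 0.0164). For *Igf1* the difference was 0.02 with a 95% interval of -0.40 to 0.44, and for *Igfals* -0.0023 with -0.54 to 0.54. *Socs2* differed by -2.01 (SE 0.78) and did not pass (adjusted p = 0.063), although its libraries did not overlap. Scaling the libraries to the same median moved the split of all genes to 1750 higher and 2128 lower, the median of all genes being 0.15 in the unscaled fit. All 6 endothelial and all 6 listed macrophage markers tested fell as well, the endothelial sum being 12.4 to 21.4 FPKM at 3 weeks and 2.44 to 5.03 at 15 weeks. Hepatocytes had been sorted by size and lack of the leukocyte protein CD45, a gate that would remove macrophages. The part of these markers in the fall of *Igfbp3* was not tested. In such bulk samples fewer cells of a type and less RNA per cell cannot be told apart.

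After deletion at 1 day *Igfbp2*, *Igf1* and *Stat5b* were lower and *Igfbp1* was higher in the adult. *Igfbp2* had 61.1, 47.8 and 50.8 FPKM in DKO and 128, 149 and 191 in controls. All DKO libraries lay below the lowest library of any other group. The difference was -1.52 log2 units (SE 0.27, adjusted p = 0.0021, limma), and it was called in all 12 alternative fits. *Igf1* had 73.8, 56.8 and 59.3 FPKM in DKO and 94.4, 84.3 and 124 in controls. The groups did not overlap, and *Igf1* fell by 0.65 (SE 0.20, adjusted p = 0.0337), to 0.636 of the control level on the scale of FPKM + 1. *Stat5b* had 9.36, 8.01 and 11.9 FPKM in DKO and 15.9, 13.4 and 15.4 in controls, again without overlap, and fell by 0.57 (SE 0.19, adjusted p = 0.0453). *Igfbp1* had 367, 327 and 790 FPKM in DKO and 129, 326 and 142 in controls, so that the lowest DKO library barely exceeded the highest control. It rose by 1.33 (SE 0.42, adjusted p = 0.0408).

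These 4 members of 9 stand beside 20% of all genes called in this comparison, of which 15.6% were lower and 4.33% higher. The median difference of the 9 members was -0.17 log2 units, and that of all genes -0.11. After scaling to the same median the split of all genes was 1409 higher and 1332 lower, and 4 members passed, 3 lower and 1 higher. Only *Igfbp2* passed when 15 week WT took the place of the injected controls. *Stat5b* then differed by -0.13 log2 units (adjusted p = 0.643), and its 15 week WT libraries, at 9.70 to 11.4 FPKM, lay below all controls injected at 1 day. *Igf1* then differed by -0.46 (adjusted p = 0.112). Without control library A or C only *Igfbp2* passed, and without any 1 of the DKO libraries 2 members did.

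*Socs2* had 8.36, 20.3 and 16.4 FPKM in DKO injected at 1 day and 2.41, 5.33 and 1.36 in controls. The groups did not overlap, but the difference of 2.03 log2 units (SE 0.78) did not pass (adjusted p = 0.0821). *Ghr* had 131, 120 and 131 FPKM against 151, 140 and 167, a difference of -0.25 with a 95% interval of -0.60 to 0.09. *Igfals* differed by -0.17 (interval -0.71 to 0.37), *Igfbp4* by -0.08 (-0.50 to 0.34) and *Igfbp3* by 0.45 (-0.41 to 1.30). Macrophage markers summed to 1.84 to 3.67 FPKM in DKO and 4.58 to 7.51 in controls, with 0 of 6 called, and endothelial markers to 3.797 to 6.00 and 5.95 to 9.03, with 1 of 6 called. Erythroid markers summed to 13.4 to 16.9 FPKM in DKO and 54.3 to 71.9 in controls, with 1 of 5 called lower (*Alas2*), and leukocyte markers to 0.274 to 0.668 and 1.22 to 2.45, with 1 of 2 tested called lower (*Lyz2*). The macrophage, erythroid and leukocyte sums did not overlap between the groups. Stellate markers summed to 3.57 to 5.28 and 3.71 to 17.95, and cholangiocyte markers to 8.66 to 13.1 and 12.9 to 21.2, with none called by limma. The part of these markers in the differences was not tested, and *Xist* was at most 0.0350 in all 6 libraries of this comparison.

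**Figure D2:**
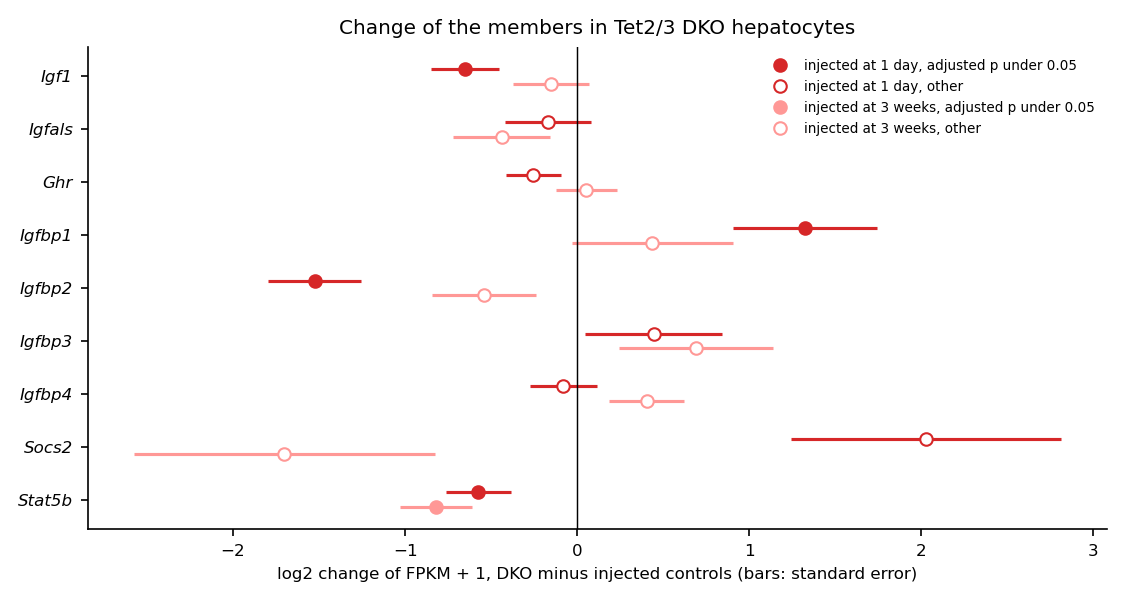
Difference of each member between DKO and injected controls on the log2(FPKM + 1) scale (points, with standard errors as bars), for deletion at 1 day (dark) and at 3 weeks (light). Filled points passed an adjusted p of 0.05 and are *Igf1*, *Igfbp1*, *Igfbp2* and *Stat5b* at 1 day and *Stat5b* at 3 weeks.

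When the deletion was made at 3 weeks, 1 of 9 members was called against 5.25% of all genes, 0.905% higher (101) and 4.34% lower (485). *Stat5b* had 9.45 and 7.16 FPKM in DKO and 16.0, 13.7 and 16.4 in controls, with no overlap, and fell by 0.82 log2 units (SE 0.21, adjusted p = 0.0397). It passed in 3 of 11 alternative fits, and without control library C, which carries *Xist*, the difference was -0.77 (adjusted p = 0.0930). *Igf1* had 78.0 and 89.4 FPKM against 79.3, 88.1 and 115, a difference of -0.15 with an interval of -0.63 to 0.32. *Igfbp2* had 198 and 171 FPKM against 239, 238 and 341, which did not overlap, and its difference of -0.54 (SE 0.30) did not pass (adjusted p = 0.272). *Socs2* had 6.72 and 1.45 FPKM against 2.10, 20.4 and 41.7, the highest value being that of the control library with *Xist*. The remaining members differed by between -0.44 (*Igfals*) and 0.69 (*Igfbp3*) and did not pass. Without library C 0 of 9 members were called, and *Igf1* then differed by -0.00093, *Igfbp2* by -0.37 and *Socs2* by -0.90. Scaling to the same median gave 1558 genes in all, 1015 of them higher. Endothelial markers summed to 10.9 to 22.8 FPKM in DKO of 3 weeks and 3.81 to 10.2 in controls, which did not overlap, with 1 of 6 called higher (*Lyve1*). Macrophage markers summed to 5.32 to 8.97 and 1.59 to 7.59, leukocyte markers to 2.07 to 4.502 and 0.687 to 2.68, and stellate markers to 7.80 to 32.9 and 5.85 to 25.3. Cholangiocyte markers summed to 5.99 to 7.59 and 6.93 to 15.8, and erythroid markers to 12.97 to 21.4 and 6.66 to 49.95. The part of these markers in the differences was not tested.

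The effect at 1 day was not shown to differ from that at 3 weeks for any member. The interaction contrast called 0 of 9 members and 5.36% of all genes (2.33% higher and 3.04% lower). It was largest for *Socs2*, at 3.73 log2 units (SE 1.17, adjusted p = 0.0664). For *Igfbp2* it was -0.98 (SE 0.40, adjusted p = 0.126) and for *Igf1* -0.50 (SE 0.29, adjusted p = 0.272). *Socs2* passed in 2 of 16 alternative fits, with adjusted p-values from 0.022 to 0.312 among them.

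The injection itself, seen in controls of 1 day against 15 week WT, gave 0 of 9 members called and 0% of all genes by limma, with 855 genes at an unadjusted p under 0.05. The difference farthest from 0 relative to its error was that of *Stat5b*, at 0.44 log2 units (SE 0.19, adjusted p = 0.592). *Igfbp2* differed by -0.58 (SE 0.27, adjusted p = 0.651).

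The wider pathway was read from 4 gene lists. Of 13 genes of growth hormone receptor signalling, 0 passed at 1 day, beside 20% of all genes, and 2 fell at 3 weeks, beside 4.34%. The median difference of the list was -0.25 log2 units at 1 day and -0.37 at 3 weeks, beside -0.11 and -0.07 over all genes. The genes that fell at 3 weeks were *Stat5a*, the close relative of *Stat5b*, by 1.02 log2 units (adjusted p = 0.0331), and *Stat3*, by 0.68 (adjusted p = 0.0327). They passed in 4 and 5 of 11 alternative fits, and without library C they differed by -0.83 (adjusted p = 0.0831) and -0.69 (adjusted p = 0.0566). Of 17 further IGF genes, 10 were tested. Beside 4.33% of all genes higher and 15.6% lower at 1 day, 1 of the 10 rose and 1 fell, and at 3 weeks 2 fell beside 4.34%. After deletion at 1 day *Igfbp5*, a partner of the ternary complex, rose from 0.148 to 0.354 FPKM in controls to 0.876 to 2.44 in DKO (adjusted p = 6.6e-04), and *Grb14*, an adaptor that inhibits the insulin receptor, fell by 0.53 (adjusted p = 0.0168). After deletion at 3 weeks the insulin receptor substrates *Irs1* and *Irs2* fell, by 1.36 (adjusted p = 0.0079) and 1.97 (adjusted p = 0.0342). Without library C *Irs1* still passed, at -1.24 (adjusted p = 0.0187), and *Irs2* did not, at -1.72 (adjusted p = 0.0876); they passed in 9 and 6 of 11 alternative fits. From 3 to 15 weeks 3 signalling genes of 13 rose and 1 fell, and 1 IGF gene of 10 rose and 3 fell, beside 24% of all genes higher and 9.32% lower. *Igf2*, the fetal ligand, had 1022 FPKM at 1 week, 16.0 to 24.2 at 3 weeks and 0.0455 to 0.0877 at 15 weeks, and fell by 4.22 from 3 to 15 weeks (adjusted p = 2.1e-10). *Grb10* had 98.5 FPKM at 1 week and fell by 2.31 from 3 to 15 weeks (adjusted p = 1.1e-07). *Socs3*, an inhibitor of cytokine signalling, rose by 3.11 (adjusted p = 1.0e-05).

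Sex-biased liver genes, which follow the pattern of growth hormone secretion, were then read, and in the comparison at 1 day all 6 libraries lacked *Xist*. Of 10 male-biased genes 4 fell, beside 15.6% of all genes, and the median difference of the 10 was -0.56 log2 units, beside -0.11. *Elovl3* had 10.3 to 23.9 FPKM in DKO and 176 to 190.5 in controls, and fell by 3.57 log2 units (adjusted p = 0.0202). *Hsd3b5* fell by 2.76 (adjusted p = 0.0253), *Cyp7b1* by 1.88 (adjusted p = 0.0054) and *Slco1a1* by 0.69 (adjusted p = 0.0462). Among the female-biased genes *Cyp2a4* had 4.55 to 9.63 FPKM against 42.5 to 93.4, and fell by 3.05 (adjusted p = 0.0031). At 3 weeks 1 male-biased gene of 10 rose, *Ugt2b38* by 0.68 (adjusted p = 0.0394), beside 0.905% of all genes. Among 14 female-biased genes 1 fell, *Cyp2a4* by 2.42 (adjusted p = 0.0449), beside 4.34%. The *Cyp2a4* control values were 65.8, 72.2 and 449 FPKM, the last in the library with *Xist*. Without that library *Cyp2a4* differed by -1.52 (adjusted p = 0.0455) and *Ugt2b38* by 0.64 (adjusted p = 0.0928), and they passed in 6 and 4 of 11 alternative fits. Between 3 and 15 weeks all 10 male-biased genes rose, beside 24% of all genes, in the comparison where age and sex cannot be told apart.

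Across the 18 libraries, the genes whose log2 level followed *Igf1* most closely were *Ttpa* (Pearson r = 0.921), *Cdhr5* (0.895), *Rnd1* (0.889), *Ids* (0.888) and *Gid4* (0.882). Those closest to *Igfbp2* were *Sult1c2* (0.932), *Nudt16l1* (0.922), *Tbc1d1* (0.920), *Fam107b* (0.920) and *Kank3* (0.918). These correlations share the libraries, their ages and their depth, and describe them only.

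Methylation was read in 200 bp tiles of WGBS that overlapped a member or the 5 kb on either side. Of 1987 distinct tiles with a value in newborn and adult WT, 268 were lower in the adult by at least 35 points, called lost here. This is 13.5%, beside 1.63% of all tiles of the table and 2.14% of tiles summed over the same windows of 22734 genes. The genes differed widely. *Igfals* had lost 18 of 62 tiles (29.0%), *Igf1* 68 of 312 (21.8%), *Igfbp4* 21 of 98 (21.4%) and *Ghr* 114 of 816 (13.97%). *Stat5b* had lost 34 of 348 (9.77%), *Igfbp1* 5 of 68 (7.35%) and *Socs2* 5 of 71 (7.04%). *Igfbp2* had 3 of 163 (1.84%), and *Igfbp3* 0 of 77. The share at *Igfals* exceeded that of 99.6% of the 22734 genes, that at *Igf1* 99.2% and that at *Igfbp4* 99.1%. The opposite change was rare, with 7 distinct tiles higher in the adult by 35 points, beside 0.264% of all tiles, and 5 of the 7 at both *Igfbp1* and *Igfbp3*, whose windows overlap on chromosome 11. With 1 library per group these differences have no replicate check, and the depth of each value is unknown.

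In DKO, methylation at the lost tiles stood near the newborn level. Newborn and adult values chose the tiles, so that only the DKO library was independent of the choice. Over the 68 tiles of *Igf1* the mean was 80.1% in newborn WT, 18.4% in adult WT and 77.6% in DKO. Over the 114 tiles of *Ghr* it was 83.9%, 26.1% and 78.1%. *Igfals* had 77.8%, 24.7% and 74.2%, and *Stat5b* 72.6%, 14.2% and 75.0%. At *Igfbp2* the 3 tiles had 60.9%, 20.3% and 83.6%, the DKO value lying above the newborn. Of the 268 lost tiles, 231 (86.2%) were at least 35 points higher in DKO than in adult WT, beside 70.6% of all lost tiles of the table. Over all 1980 tiles of the members with 3 values, 307 were this much higher in DKO, the 231 included, beside 1.98% of all tiles of the table. At a difference of 25 points 382 tiles of the members were lost, beside 3.78% of all tiles. Of the 268 lost tiles, 175 fell by at least 50 points, beside 54524 of the 131898 lost tiles of the table. The part of these larger falls in the share of 86.2% was not tested.

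**Figure D3:**
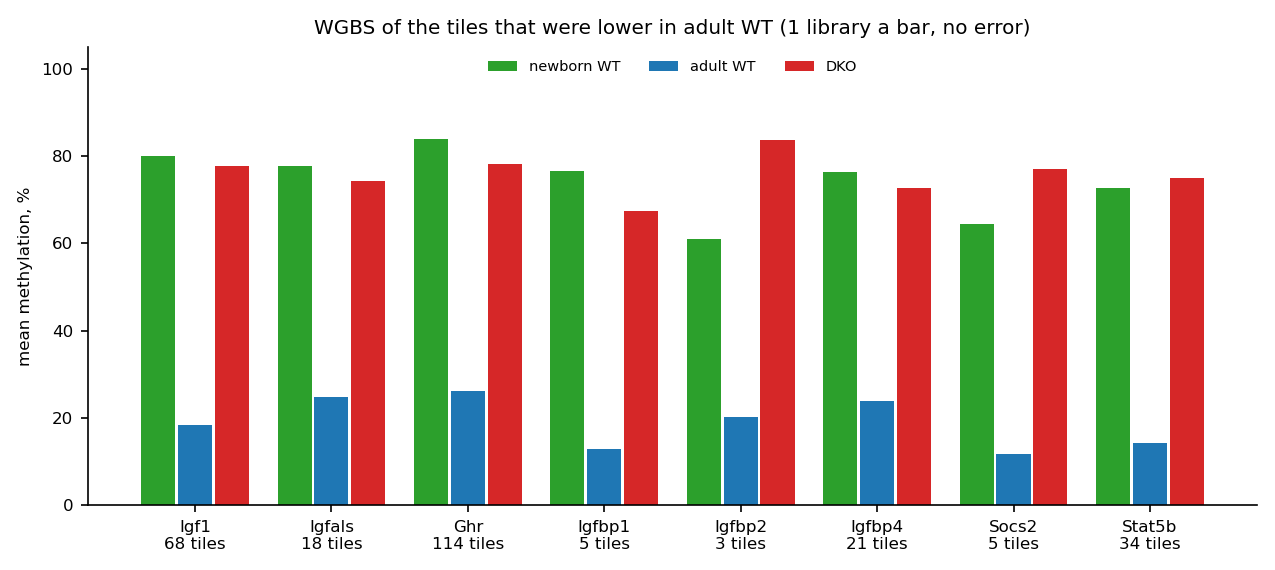
Mean WGBS methylation (percent, axis from 0) of the lost tiles of each member in newborn WT, adult WT and DKO, 1 library a bar and no error. The adult bar lies between 11.6% and 26.1% and the DKO bar between 67.5% and 83.6% at all 8 members with lost tiles, and *Igfbp3* had none.

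*Igf1* lies on chromosome 10, at chr10:87321801-87399792 of mm9, on the plus strand. These are the deposited coordinates, and GENCODE begins the gene upstream, at 87321010. Its lost tiles ran from -2500 to 75899 bp relative to the deposited start. Of the 68, 57 lay in introns, 9 in exons or their untranslated ends and 2 upstream. Around the start itself, over 9 tiles within 1 kb, methylation was 26.7% in newborn WT, 3.19% in adult WT and 34.1% in DKO. The 3 largest falls at *Igf1* were from 100% to 7.69% with 66.7% in DKO at chr10:87397601-87397800, from 92.2% to 0% with 85.4% in DKO at chr10:87324201-87324400, and from 95.1% to 3.45% with 70.5% in DKO at chr10:87329001-87329200. The first overlaps an untranslated region and the others lie in introns.

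**Figure D4:**
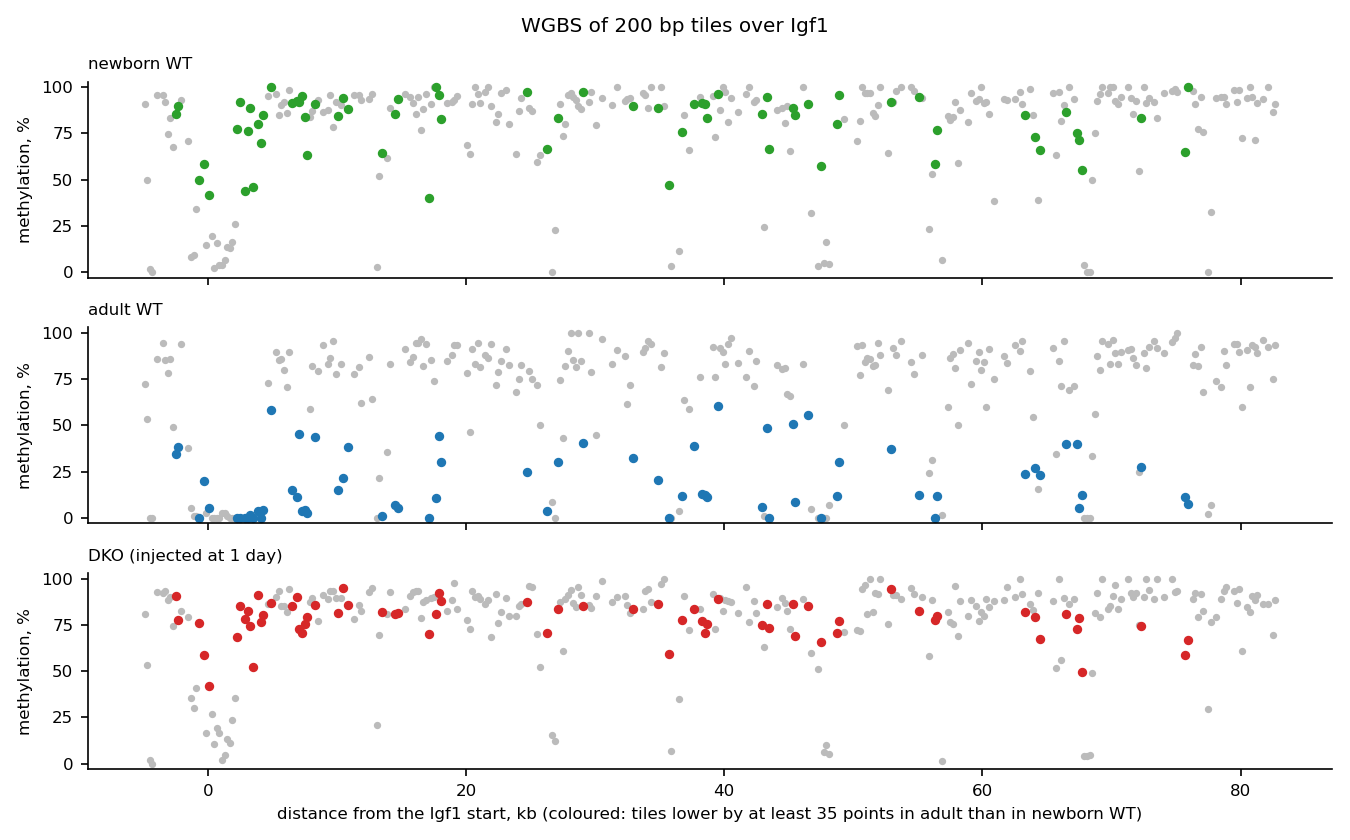
WGBS methylation (percent) of 312 tiles over *Igf1* against the distance of the tile from the start (kb), in newborn WT, adult WT and DKO. The 68 coloured tiles, spread over the gene, drop in the adult panel to a mean of 18.4% and stand at 77.6% in DKO.

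None of the 24 tiles with the largest falls (up to 3 a member) lay under an ATAC-Seq peak of WT liver. Such a peak covered 9 of the 268 lost tiles, 8 of them in introns, at *Igf1*, *Ghr* and *Stat5b*. By WT library the share was 2.99% and 1.12%, beside 3.02% and 2.52% of all tiles of the members. Over all lost tiles of the whole genome it was 5.03% and 6.85%. Of the 9 tiles, 8 had no ATAC-Seq peak in either DKO library, and only 2 had a peak in both WT libraries. Tiles chosen by a WT peak can show the absence of a DKO peak but not the reverse. A peak of either DKO library covered 4 of the 268 lost tiles. By DKO library the share was 0.746% and 1.12%, beside 3.37% and 3.57% of all tiles of the members. The 4 sequences below were chosen after these values were seen. They are both intronic tiles with a peak in both WT and neither DKO library, which lie in *Igf1*, and the intronic tile under a WT peak with the largest fall at *Stat5b* and at *Ghr*. Of the 4 intronic tiles not printed, 1 in *Igf1*, chr10:87357401-87357600, with 47.2%, 0% and 59.5% in newborn, adult and DKO, kept a peak in both DKO libraries. They are given on the plus strand of mm9, 5′ to 3′, with each CG, the site of methylation, in capitals.
Igf1 intron, chr10:87360201-87360400: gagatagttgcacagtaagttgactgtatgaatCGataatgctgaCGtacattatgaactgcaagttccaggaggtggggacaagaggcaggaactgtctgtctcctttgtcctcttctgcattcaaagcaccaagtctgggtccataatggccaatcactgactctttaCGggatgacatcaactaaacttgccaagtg
Igf1 intron, chr10:87348001-87348200: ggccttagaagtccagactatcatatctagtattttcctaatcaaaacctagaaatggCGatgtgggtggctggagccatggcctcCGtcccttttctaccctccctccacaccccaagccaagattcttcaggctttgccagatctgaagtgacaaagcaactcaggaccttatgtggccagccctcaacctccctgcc
Stat5b intron, chr11:100653001-100653200: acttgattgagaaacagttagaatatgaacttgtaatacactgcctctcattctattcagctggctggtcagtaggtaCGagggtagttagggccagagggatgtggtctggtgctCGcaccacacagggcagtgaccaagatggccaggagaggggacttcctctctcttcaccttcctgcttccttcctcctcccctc
Ghr intron, chr15:3330401-3330600: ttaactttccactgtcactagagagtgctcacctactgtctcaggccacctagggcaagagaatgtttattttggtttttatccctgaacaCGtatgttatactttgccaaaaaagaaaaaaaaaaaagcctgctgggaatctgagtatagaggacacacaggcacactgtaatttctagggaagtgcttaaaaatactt

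The first of these held the strongest WT ATAC-Seq peak of *Igf1*, 38499 bp after the start. Its 3 CG sites together had 90.7% methylation in newborn WT, 12.3% in adult WT and 70.8% in DKO. The peak at chr10:87360215-87360345 had 9.2 and 7.02 normalized tags in the 2 WT libraries and was absent from both DKO lists. HNF6, a hepatocyte transcription factor, had its strongest WT peak of the gene at the same place, chr10:87360151-87360309, with 11.5 and 28.2 normalized tags in WT and no peak in either DKO library. In all, the DKO libraries listed 9305 and 34665 HNF6 peaks, and the WT libraries 4387 and 9355. The cause of the missing peak was not tested. The second sequence, with 2 CG sites, had 66.7%, 3.45% and 70.8% methylation, and a peak in both WT and neither DKO library. The *Stat5b* tile had 73.3%, 5.00% and 84.8%, and the *Ghr* tile, with 1 CG, 60%, 0% and 76.9%. Both of these lay under a peak of 1 WT library only.

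Over the whole lists, 7.34% of the 35614 ATAC-Seq peaks shared by both WT libraries had no overlapping peak in either DKO library, and at the members 3 of 22 did. Among lost tiles under a peak of both WT libraries the share was 37.2% of 4178 in the table and 2 of 2 at the members. For HNF6 it was 19.5% of 1134 and again 2 of 2, both at *Igf1*. Counted by library, HNF6 peaks covered 2 and 5 of the 268 lost tiles of the members in WT and 1 and 8 in DKO. At *Ghr* alone they covered 0 and 1 lost tiles in WT and 1 and 7 in DKO. The strongest WT ATAC-Seq peaks of *Ghr*, *Igfbp1*, *Socs2* and *Stat5b* lay near the start of the gene, and each was found in both genotypes. Those of *Igfbp1* and *Socs2* were in 1 DKO library only, and that of *Stat5b* in 1 WT library only. At *Ghr* the strongest WT ATAC-Seq peak, 134 bp from the start, had 19.1 and 10.5 normalized tags in WT and 10.5 and 13.5 in DKO. At *Igfbp2* the strongest WT peak lay in an intron at chr1:72889392-72889534 and had 10.5 and 11.4 tags in WT and 3.27 and 4.32 in DKO, where its 2 tiles had 16.7%, 5.18% and 39.8% methylation in newborn, adult and DKO. The remaining members each had their strongest WT ATAC-Seq peak in at least 1 DKO library. The strongest WT HNF6 peak of *Igfbp4*, in an intron at chr11:98910079-98910237, had 6.73 tags in 1 WT library and no peak in the other or in either DKO library, and its 2 tiles had 81.6%, 30.7% and 85.0% methylation. That of *Igfals* had 6.72 and 8.57 tags in WT and 13.1 and 40.2 in DKO. At *Ghr* it had 6.08 and 10.4 against 16.1 and 32.7, and at *Stat5b* 7.04 and 26.3 against 25.0 and 87.1. That of *Igfbp1* had 12.2 tags in 1 WT library and 11.2 and 35.7 in DKO. Summed over the members, HNF6 peaks numbered 9 and 15 in WT and 14 and 42 in DKO. ATAC-Seq peaks numbered 44 and 32 in WT and 39 and 49 in DKO.

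*Ghr*, on the minus strand at chr15:3267755-3533352, is the longest member, and its lost tiles began 2251 bp after the start and ran over the whole gene. Of the 114, 106 were intronic. The largest fall was from 96.2% to 0% with 64.7% in DKO at chr15:3406601-3406800. Its start stayed low in all 3 libraries, with 13.5%, 12.9% and 13.97% within 1 kb. *Igfals*, at chr17:25015715-25018953, had its largest fall 185 bp after the deposited start, at chr17:25015801-25016000, from 82.6% to 7.69% with 64.7% in DKO. GENCODE begins this gene upstream, at 25014600, and annotates that tile as intron. Within 1 kb of the deposited start of *Igfals* 10 tiles had a mean of 42.1% in newborn, 5.75% in adult and 40.9% in DKO, and 7 of its 18 lost tiles overlapped coding exon. At the 7 members other than *Igf1* and *Igfals* the newborn and adult values within 1 kb of the start lay close together, those of *Igfbp2*, at 8.26% and 5.76%, being the farthest apart. *Stat5b*, on the minus strand at chr11:100642045-100711899, had 1.63%, 0.813% and 2.38% around its start and its largest fall in an intron at chr11:100701201-100701400, from 88.1% to 0% with 81.7% in DKO.

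*Igfbp1*, at chr11:7097790-7102549, had its 5 lost tiles upstream, the largest fall being from 94.7% to 0% with 81.0% in DKO at chr11:7095601-7095800, at -2089 bp. *Igfbp2*, at chr1:72871054-72899045, had 3 intronic ones, of which chr1:72889601-72889800, next to the ATAC-Seq peak named above, had 63.0%, 14.5% and 75.7%. *Igfbp4*, at chr11:98902574-98913957, had its largest fall in an intron at chr11:98912201-98912400, from 87.5% to 7.69% with 64.5% in DKO. *Socs2*, at chr10:94874124-94879491 on the minus strand, had it upstream at chr10:94882401-94882600, from 61.6% to 2.41% with 68.0%. *Igfbp3*, at chr11:7106096-7113926, had 4.11%, 3.93% and 5.30% around its start.

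Most lost tiles of the members lay under histone marks of enhancers. H3K4me1 peaks of WT covered 82.5% of the 268, beside 59.9% of all 1987 tiles of the members and 54.4% of all lost tiles in the table. In DKO the share was 83.2%. H3K27ac peaks covered 59.7% in WT and 57.1% in DKO, beside 40.3% of the members' tiles in WT. By gene, H3K27ac covered 62 of 68 lost tiles of *Igf1* in WT and 50 in DKO, 35 and 48 of 114 at *Ghr*, and 9 and 17 of 18 at *Igfals*. At *Igfbp2* all H3K27ac peaks together covered 12210 bp in WT and 5584 bp in DKO, and H3K4me1 peaks 19091 and 8961 bp. These are single libraries with 43085 WT and 46782 DKO peaks of H3K27ac, and the differences were not tested. Peaks of 5-hydroxymethylcytosine, the product of the TET enzymes, covered 29.9% of the lost tiles of the members at 20 days, beside 19.8% of all lost tiles and 9.58% of all tiles.

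The letters TTCNNNGAA, a palindrome that reads the same on both strands and to which STAT5 binds, occurred in 29 of the 268 lost tiles (10.8%). They occurred in 7.35% of all tiles of the members, in 8.32% of all lost tiles and in 7.23% of all tiles of the table. Of the tiles with the motif, 15 lay at *Ghr*, 8 at *Igf1*, 4 at *Stat5b* and 1 each at *Igfals* and *Igfbp1*. None of the 4 tiles printed above holds it.

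RRBS, which reads CpG sites near restriction fragments in 100 bp tiles, gave values for single mice that had no part in choosing the tiles. It covered 25 tiles inside lost WGBS tiles, enough mice with values for 4 members, while *Igf1* and *Igfbp4* had too few values and *Igfbp1*, *Igfbp2* and *Igfbp3* had no such tile. Over 5 tiles of *Stat5b*, controls injected at 1 day had 2.28%, 4.20% and 1.5%, and DKO of 1 day 73.2% and 84.6%. Over 2 adjoining tiles of *Ghr*, at chr15:3456201-3456400, controls had 17.98%, 5.88% and 19.8%, and DKO 90% and 93.4%. In the 1 tile of *Socs2* with values controls had 8.89%, 20.0% and 13.3%, and DKO 82.2% and 76.9%. Over 11 tiles of *Igfals* controls had 41.6%, 49.6% and 45.2%, and DKO 85.7% and 86.6%. All 4 members were higher in both DKO mice than in any control, by 40.7 points at *Igfals*, 65.5 at *Socs2*, 76.2 at *Stat5b* and 77.2 at *Ghr*. Each exact two-sided permutation test gave p = 0.2 (n = 2 and 3), the smallest that 2 mice against 3 can give. Adjacent tiles share reads and are not replicates.

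By 3 weeks the members stood at different levels in these tiles. The 3 week WT mice and the third control of the 3 week deletion carry the animal numbers of RNA libraries with *Xist*, so that age and sex cannot be told apart in RRBS of 3 week WT either. At 3 weeks WT mice had 8.30% and 6.24% at *Stat5b* and 13.9% and 7.46% at *Socs2*, but 75.0% and 54.7% at *Ghr* and 70.5% and 77.3% at *Igfals*. After deletion at 3 weeks, *Ghr* stood at 93.1% and 87.3% against 21.5%, 16.7% and 46.8% in controls, and *Igfals* at 79.2% and 76.1% against 53.2%, 42.6% and 30.6%. *Socs2* had 1.61% and 9.68% in DKO and 25.7% and 0% in the 2 controls with a value. *Stat5b* had 24.4% and 22.4% in DKO and 1.21%, 0% and 0% in controls. The groups overlapped at *Socs2* (exact two-sided permutation p = 1, n = 2 and 2) and did not at the other 3 (exact p = 0.2, n = 2 and 3). Without the third control the differences were 71.1 points at *Ghr*, 29.8 at *Igfals*, 22.8 at *Stat5b* and -20.1 at *Socs2*. In these few tiles, the 2 members low at 3 weeks were lower in DKO after the later deletion than after the earlier one. DKO mice of 1 day had a mean of 78.9% ± 8.11 (SD, n = 2) at *Stat5b* and those of 3 weeks 23.4% ± 1.43 (SD, n = 2), and at *Socs2* the means were 79.6% ± 3.75 and 5.65% ± 5.70 (SD, n = 2 each). The effect of the deletion at 1 day exceeded that at 3 weeks by 53.2 points at *Stat5b*, 72.7 at *Socs2*, 15.3 at *Ghr* and 5.14 at *Igfals*. An exact permutation of the time of injection within DKO mice and within controls, added after the values were seen, gave p = 0.333, 0.183, 0.183 and 0.55, and 0.367 or above after Benjamini-Hochberg adjustment over the 4 members. Over all RRBS tiles of the gene, *Stat5b* had means of 63.95% in DKO of 1 day and 60.2% in DKO of 3 weeks, against 45.4% and 44.1% in their controls. *Socs2* had 14.3% and 12.0% over all its tiles, against 8.53% and 7.78%.

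**Figure D5:**
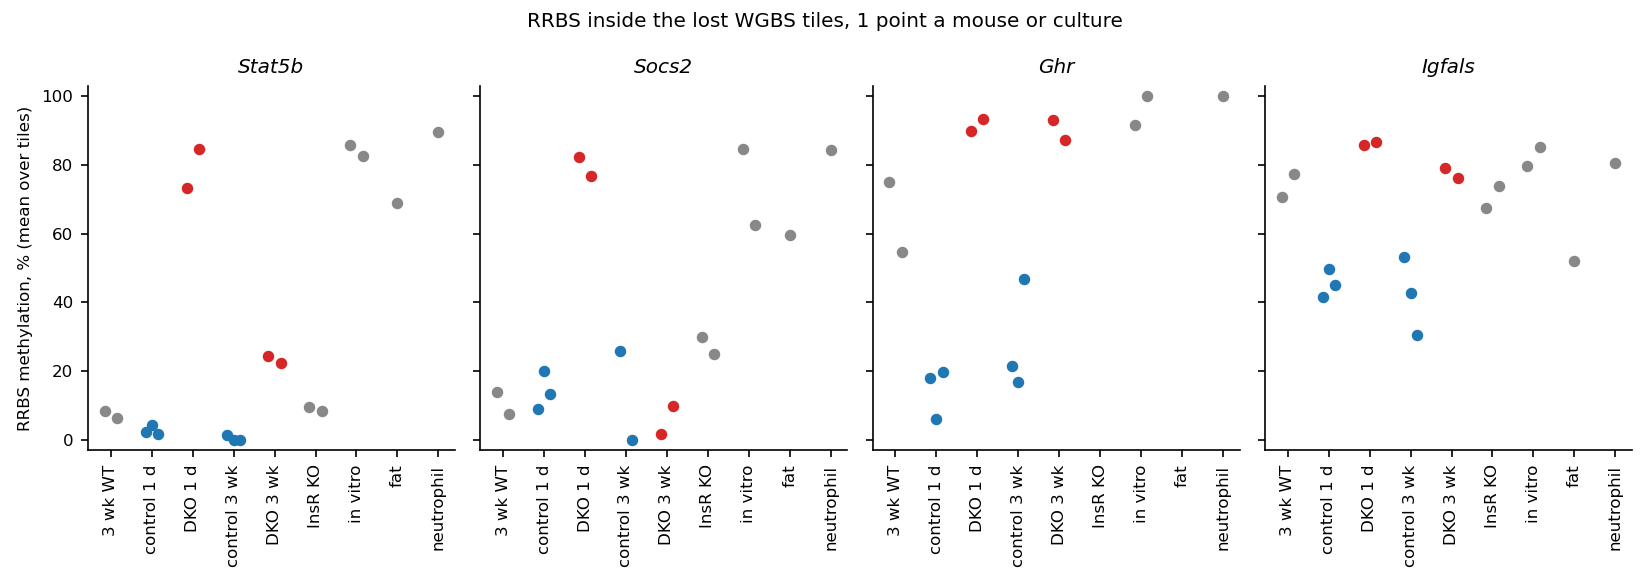
RRBS methylation (percent) inside the lost WGBS tiles of *Stat5b*, *Socs2*, *Ghr* and *Igfals*, 1 point a mouse or culture, with controls in blue and DKO in red. At 3 weeks WT mice are at 6.24 to 13.9% at *Stat5b* and *Socs2* and at 54.7 to 77.3% at *Ghr* and *Igfals*.

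InsR KO hepatocytes, of mice without the insulin receptor, had 67.5% and 73.8% at *Igfals*, above all 3 controls injected at 1 day, and 9.54% and 8.42% at *Stat5b*, also above them. *Socs2* had 30.0% and 25.0%. The differences were 25.1, 6.32 and 13.4 points (exact two-sided permutation p = 0.2 each, n = 2 and 3). Hepatocytes kept in culture had 79.7% and 85.1% at *Igfals*, 85.7% and 82.7% at *Stat5b* and 84.6% and 62.5% at *Socs2*. Neutrophils had 80.6%, 89.7% and 84.2% and fat 52.05%, 68.8% and 59.6% in the same order, in 1 sample each.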

How the data were processed

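The authors deposited FPKM values per gene (cutadapt, TopHat2 and Cufflinks, mm9). They were fitted as log2(FPKM + 1), keeping genes whose average reached 1 FPKM in any group, with all 18 libraries in 1 fit, by limma 3.58.1 in R 4.3.3 (eBayes with trend, Benjamini-Hochberg adjustment over 11166 genes, threshold 0.05). WGBS (200 bp tiles) and RRBS (100 bp tiles), aligned with BSMAP 2.74, were deposited by the authors as methylated fractions with minimums of 15 and 10 CpGs and no coverage, so depth is unknown, and were multiplied to percent. Peaks with their tag signal, normalized to library size, were called by the authors in each library with HOMER. The deposited peak score served 1 alternative. Peaks overlapped a tile or gene by at least 1 bp. Mice were compared by exact permutation tests. Of 61 RRBS and 24 expression columns, 49 were not used. RRBS columns of the injected and 3 week groups were assigned by an animal number that an expression column shares, and the WGBS column named as young was taken as newborn. Gene starts and ends were those deposited with the expression values, and strand, exons and introns followed GENCODE on mm9. Of 8067987 WGBS tiles, 0 lacked a CG in mm9. The limma fit and the tile rule were tried on simulated data. For the tile rule the simulated falls were set on either side of the cut, so that its outcome was fixed in advance. That trial therefore gives no measure of error for the real tiles.

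The members and lists were chosen with earlier results of these data known. Besides the 9 members, named genes were at most 4 per list and comparison, ranked by size of change among called genes without overlap between groups, and the 5 most correlated with *Igf1* and *Igfbp2*. Named tiles were the 3 largest falls of a member. Sequences were to come from those under a WT ATAC-Seq peak, and as there were 0, others were chosen after values were seen. Alternatives were another pseudocount, no filter, scaling to the same median, only the groups compared, no trend, 15 week WT as reference, other differences and windows, and leaving out each library or mouse. A result of the female-biased list is not reported here, so that list is given without counts for deletion at 1 day and for age.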

Additional observations from a re-analysis of the deposited data

Results flagged for a closer look

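The insulin receptor substrate *Irs2* was called in the contrast between the times of deletion. The effect at 1 day exceeded that at 3 weeks by 2.55 log2 units (SE 0.64, adjusted p = 0.043, limma with Benjamini-Hochberg adjustment), and this interaction passed in 7 of 16 alternative fits. *Irs2* had 10.3, 4.34 and 17.4 FPKM in DKO of 1 day and 5.71, 7.97 and 4.62 in their controls, which overlapped. It had 4.41 and 1.92 FPKM in DKO of 3 weeks and 16.9, 8.56 and 21.2 in their controls, which did not overlap. The highest of these values is that of control library C, which carries *Xist* and enters the contrast. Without library C the effect at 3 weeks was -1.72 log2 units and did not pass (limma, adjusted p = 0.0876). The part of sex in this contrast was not tested.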

How the results depend on the processing

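Of 630 alternatives for single genes and tiles, 568 were rated the same as the main result, as were 190 of 241 for counts and RRBS comparisons. For single genes in limma this meant the same direction and side of the threshold. For counts of genes, members and tiles it meant a ratio to the main count within a set limit. For RRBS it meant the same sign only. Between 1 and 15 weeks, and for peak numbers, it meant a shift smaller than the SD. For deletion at 1 day, members called fell to 1 with no filter on low values and to 1 against 15 week WT, *Igfbp3* turned to -0.23 against 15 week WT and *Igfbp4* to 0.088 under scaling. For deletion at 3 weeks, 0 members were called with no filter, with only the groups compared and against 15 week WT, and the genes called were 370 with no filter, 1558 under scaling and 56 with only the groups compared. There *Igf1* turned to 0.024 under scaling and *Ghr* to -0.17 against 15 week WT. With age, *Igf1* turned to -0.22 under scaling. The interaction called 1 member under scaling, and 128, 2395 and 178 genes with no filter, under scaling and with only the groups compared. The injection called 2, 29 and 5 genes under the same 3 settings. A fold of 0.5 log2 units passed 3546 genes between 1 and 15 weeks, and 50 points left 175 lost tiles. Over all RRBS tiles of the gene, *Socs2* gave 4.22 points for deletion at 3 weeks and -0.63 for InsR KO, and *Stat5b* -2.17 for InsR KO. The cause of these shifts was not tested.

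Leaving out 1 library at a time gave 1 to 4 members and 876 (without control C) to 2308 genes for deletion at 1 day, 0 to 1 and 53 (without DKO B) to 4.1e+02 for deletion at 3 weeks, 0 to 1 and 30 (without DKO B of 3 weeks) to 1748 for the interaction, and 0 to 6 genes for the injection. It moved *Igfbp4* between -0.21 and 0.080 at 1 day, *Igf1* between -0.18 and 0.16 and *Igfals* between -0.35 and 0.23 with age, *Igfbp3* between -0.85 and 0.36 in the interaction, *Ghr* between -0.13 and 0.0099 and *Socs2* between -0.81 and 0.0067 for the injection, and *Socs2* between -20.1 and 5.65 points in RRBS at 3 weeks. No paired analysis was possible because the columns carry no replicate number of the labels.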
